A study of Mus musculus with 8 samples.

Results

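The genes described here are Calcr, which encodes the calcitonin receptor, and Col5a1, Col5a2 and Col5a3, which encode the chains of collagen V. They were chosen by name, as a receptor and the chain genes of its reported ligand, and are 4 of the 27554 genes in the deposited table. Earlier results of these data were known when the choice was made. All 4 were measured in every library and passed the filter on low counts.

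Polyadenylated RNA was sequenced from muscle stem cells of mouse hindlimb muscle, sorted by the fluorescence of reporter alleles. Every animal was of the background C57BL/6NTac and carried both reporter alleles, Pax7tm3955(T2A-ZsGreen)Tac at Pax7, which marks muscle stem cells, and Myf5tm3956(T2A-E2Crimson)Tac at Myf5, which encodes a myogenic transcription factor. The 4 groups were female Myf5High, female Myf5Low, male Myf5High and male Myf5Low cells, with no treatment named, where High and Low are the top and bottom of the E2Crimson range among Pax7-positive cells. There were 2 libraries per group and each came from a pool of 4 mice, so the spread between animals within a pool was not measured, and no age was given. The sort followed a reporter protein and not the Myf5 transcript, and cells between the ends of the range were not analysed here.

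The calcitonin receptor is a G protein-coupled receptor that raises cyclic AMP and activates protein kinase A, and in adult muscle it is known as a surface marker of quiescent stem cells that is lost on activation. Collagen V is a minor fibrillar collagen that is built into the fibrils of more abundant collagens. In muscle stem cells, Notch signalling through the DNA-binding protein RBPJ is known to drive collagen V genes, and the secreted collagen V is reported to act back on the same cells through the calcitonin receptor to keep them quiescent.

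The promoters of these genes are shown because 3 of the 4 genes rose together in Myf5High cells (values below the sequences), and because RBPJ is the factor of the Notch pathway and MYF5, whose reporter defined the sort, belongs to the factors that bind E-boxes. Each sequence is the 250 bases before an annotated start of transcription, from RefSeq on GRCm38.p6, written 5′ to 3′ on the strand of the gene. Capitals mark E-boxes, searched as CANNTG, which reads the same on both strands. Calcr had 2 annotated starts, at chr6:3764714-3764963 (minus strand) for the first window and chr6:3763624-3763873 (minus strand) for the second. The Col5a1 window was chr2:27886175-27886424 (plus strand) and the Col5a3 window chr9:20815068-20815317 (minus strand). Col5a2 had no entry.
Calcr, first start: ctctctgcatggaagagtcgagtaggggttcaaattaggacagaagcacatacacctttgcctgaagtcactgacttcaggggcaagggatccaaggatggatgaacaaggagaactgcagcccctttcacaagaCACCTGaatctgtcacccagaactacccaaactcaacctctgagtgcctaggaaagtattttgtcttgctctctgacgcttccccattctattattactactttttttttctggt
Calcr, second start: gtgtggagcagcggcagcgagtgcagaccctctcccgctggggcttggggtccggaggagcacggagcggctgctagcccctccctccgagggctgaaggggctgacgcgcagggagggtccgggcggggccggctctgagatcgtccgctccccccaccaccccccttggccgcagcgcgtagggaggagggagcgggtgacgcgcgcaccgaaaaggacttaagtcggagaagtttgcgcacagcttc
Col5a1: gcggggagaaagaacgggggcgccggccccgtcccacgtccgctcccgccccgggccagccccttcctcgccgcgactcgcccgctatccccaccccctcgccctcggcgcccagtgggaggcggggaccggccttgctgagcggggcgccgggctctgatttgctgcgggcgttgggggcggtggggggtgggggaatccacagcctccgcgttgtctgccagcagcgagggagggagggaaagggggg
Col5a3: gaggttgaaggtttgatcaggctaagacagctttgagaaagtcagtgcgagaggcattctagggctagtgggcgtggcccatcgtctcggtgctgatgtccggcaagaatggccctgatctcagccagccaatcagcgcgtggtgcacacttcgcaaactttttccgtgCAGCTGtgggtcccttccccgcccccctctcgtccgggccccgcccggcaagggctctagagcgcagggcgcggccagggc

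The first Calcr window held 1 E-box, CACCTG, 115 bases before the start, and the Col5a3 window held 1, CAGCTG, 81 bases before the start. The second Calcr window and the Col5a1 window held 0. Of all 32851 promoter windows of this length, 66.2% held an E-box, so matches in 2 of these 4 windows do not set them apart. The core letters of the RBPJ motif, TGGGAA or TTCCCA on the other strand, were found in 0 of the 4 windows and in 21.6% of all windows. That says only that these letters are not in these windows. GC content was 70.8% in the second Calcr window, 76.4% in Col5a1 and 62.8% in Col5a3, against 46.0% in the first Calcr window and a median of 52.4% over all windows. Counts were made per gene, so the start that was used in these cells could not be read from them.

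Calcr (ENSMUSG00000023964) lies on chromosome 6 from 3685680 to 3764714 on the minus strand and has 17 exons after merging its transcripts. An intron of Calcr holds the microRNA genes Mir489 and Mir653. The guide strand of the first, a microRNA known from quiescent muscle stem cells, is shown with its seed (bases 2 to 8) in capitals, from chr6:3721922-3721944 on GRCm38.p6. Neither microRNA gene was in the count table.
mmu-miR-489-3p: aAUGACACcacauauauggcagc

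Col5a1 (ENSMUSG00000026837) lies on chromosome 2 from 27886425 to 28039514 on the plus strand, Col5a2 (ENSMUSG00000026042) on chromosome 1 from 45374321 to 45503282 on the minus strand, and Col5a3 (ENSMUSG00000004098) on chromosome 9 from 20770050 to 20815067 on the minus strand. They have 66, 52 and 67 merged exons. Exons of Col5a1 overlap those of 2 genes on the other strand, 2810430I11Rik and Gm13372. The strand setting of the counting was not given in the sources used here, so reads of Col5a1 and of these genes could not be told apart. The remaining members had no exon overlap with another annotated gene.

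Gene counts per library ranged from 3140361 to 4238427. The lowest count of any member in any library was 189, for Calcr in female Myf5Low replicate 2, against a floor of 3 counts, which corresponds to 0.708 to 0.955 CPM, counts scaled to a common library total. Libraries of 1 group differed by more than sampling noise in each of the 4 groups. The Myf5 transcript, which checks the labels of the sort, averaged 89.35 ± 40.7 CPM in Myf5High against 36.4 ± 11.6 CPM in Myf5Low (n = 4 each, ± SD), with a log2 fold change of 1.19 with an SE of 0.27 (adjusted p 0.0284 by edgeR), and was called in 3 of 8 fits with 1 library removed. In females it was at 128.4 and 115.8 CPM in Myf5High replicates 1 and 2, above 25 and 49.86 CPM in Myf5Low. In males it was at 73.72 and 39.45 CPM in Myf5High replicates 1 and 2, against 41.89 and 28.67 CPM in Myf5Low, and the fractions overlapped. Male Myf5High replicate 2 thus lay below male Myf5Low replicate 1 and female Myf5Low replicate 2, which goes against its label at the transcript level, and above the Myf5Low library of its own pool number. It is called by its label here, and results are also given without it. Pax7 averaged 1300 ± 224 CPM in Myf5High against 1274 ± 77.5 CPM in Myf5Low (n = 4 each, ± SD). Levels below are normalised CPM, after scaling of the library sizes. In bulk RNA, fewer cells of a type and less RNA per cell cannot be told apart.

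The comparison of Myf5High with Myf5Low asked which transcripts differ between the ends of the Myf5 reporter range. Calcr, Col5a1 and Col5a3 were higher in Myf5High, by 1.86-fold, 2.13-fold and 2.2-fold. Col5a2 did not pass the test, at 1.44-fold. Thus 3 of the 4 members were called, all in 1 direction, where 0.767% of the 11730 genes tested were called higher and 1.2% were called in either direction. A gene is called where its p-value from edgeR's quasi-likelihood test, adjusted by Benjamini-Hochberg over all genes tested, is under 0.05. Without male Myf5High replicate 2, whose Myf5 transcript was low, the same 3 members were called, with log2 fold changes of 1.02 for Calcr (adjusted p 0.00784 by edgeR), 1.18 for Col5a1 (0.00129) and 1.205 for Col5a3 (0.000295), against 0.55 for Col5a2 (0.287), and 243 genes were called in all, against 141 with it. That was the only 1 of 8 fits with a library removed in which Calcr was called (adjusted p up to 0.191 by edgeR in the others), and the pool number as a replicate block also ended its call (adjusted p 0.0711 by edgeR).

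**Figure D1:**
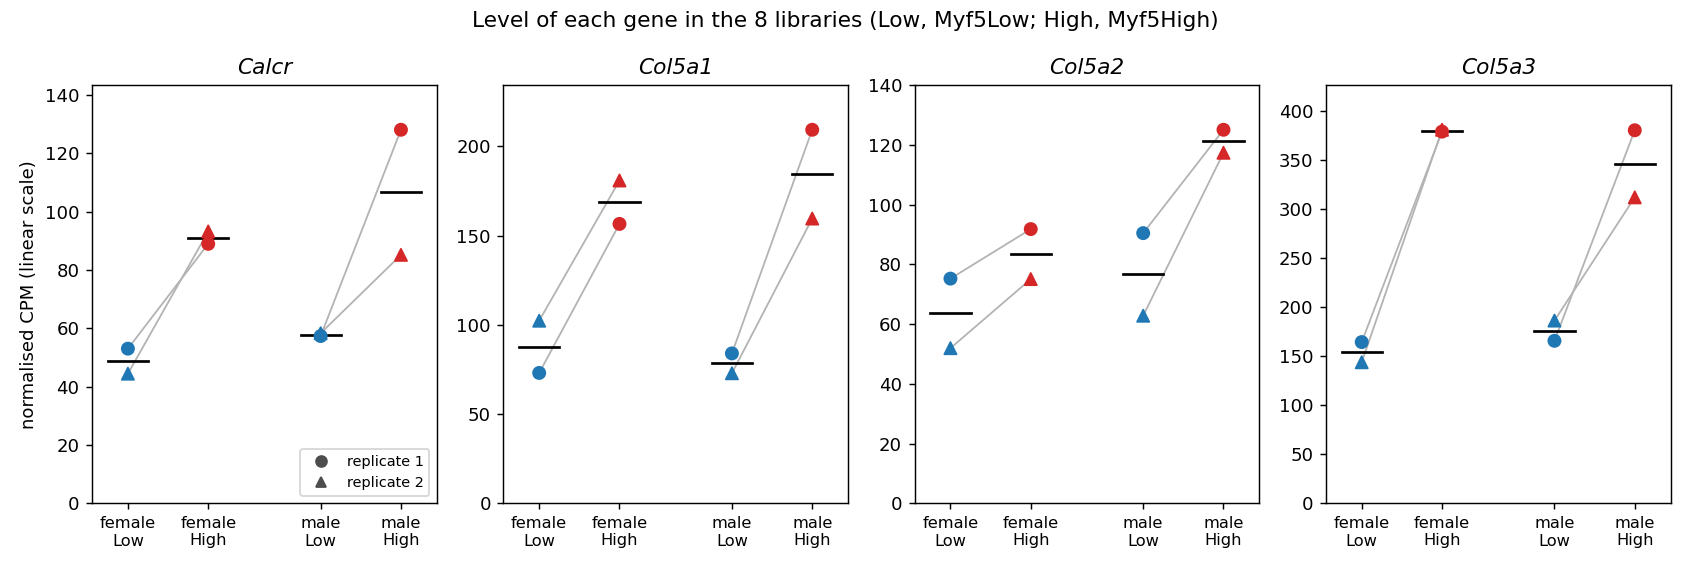
Normalised CPM (linear axes from 0, each gene with its own scale) of Calcr, Col5a1, Col5a2 and Col5a3 in the 8 libraries by group. Circles are replicate 1, triangles replicate 2, black bars group means (n = 2), and grey lines join libraries with the same pool number. Myf5High libraries lie above Myf5Low libraries without overlap for Calcr, Col5a1 and Col5a3, and the Col5a2 fractions overlap.

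Calcr, the receptor, was at 53.0 and 44.45 CPM in the female Myf5Low libraries (replicates 1 and 2) and at 57.4 and 58.3 CPM in the male Myf5Low libraries. In Myf5High it was at 88.9 and 93.2 CPM in females and at 128 and 85.15 CPM in males. Every Myf5High library was above every Myf5Low library, and male Myf5High replicate 1 stood highest. The means were 98.8 ± 19.7 CPM in Myf5High against 53.3 ± 6.32 CPM in Myf5Low (n = 4 each, ± SD), a log2 fold change of 0.89 (SE 0.21, 95% confidence interval 0.46 to 1.33, adjusted p 0.0389 by edgeR).

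The Calcr call was close to the threshold. With the pool number as a replicate block the log2 fold change was 0.88 and the adjusted p 0.0711 by edgeR. In 7 of 8 fits with 1 library removed Calcr was not called, and it passed only without male Myf5High replicate 2. Over the 8 fits the adjusted p ranged from 0.00784 to 0.191. The log2 fold change over those fits ran from 0.73, without male Myf5High replicate 1, to 1.02.

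Col5a1 encodes the α1 chain, which is found in nearly all collagen V molecules. In Myf5Low it was at 73.1 and 102.3 CPM in the female libraries and at 84.0 and 72.9 CPM in the male libraries. In Myf5High it was at 156.5 and 180.8 CPM in females and at 209.2 and 159.5 CPM in males. The fractions did not overlap, and the nearest libraries of each were female Myf5Low replicate 2 and female Myf5High replicate 1. The means were 176.5 ± 24.3 CPM and 83.1 ± 13.8 CPM (n = 4 each, ± SD), a log2 fold change of 1.09 (SE 0.2, 95% confidence interval 0.68 to 1.5, adjusted p 0.0059 by edgeR).

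Col5a3 encodes the α3 chain, which has a narrower tissue distribution than the α1 and α2 chains. It had 164.5 and 143.9 CPM in the female Myf5Low libraries and 165.8 and 186.4 CPM in the male Myf5Low libraries. In Myf5High it had 379 and 380.9 CPM in females and 380.4 and 312 CPM in males. The highest Myf5Low library stayed well under the lowest Myf5High library, male replicate 2, which lay apart from the other three. The means were 363.1 ± 34.1 CPM and 165.2 ± 17.3 CPM (n = 4 each, ± SD), a log2 fold change of 1.14 (SE 0.17, 95% confidence interval 0.78 to 1.5, adjusted p 0.00128 by edgeR). Col5a1 and Col5a3 were called in each of 8 fits with 1 library removed, with the highest edgeR adjusted p at 0.037 and 0.0135.

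Col5a2 encodes the α2 chain, the partner of α1 in the common form of collagen V. It had 75.3 and 52.0 CPM in female Myf5Low and 90.5 and 62.8 CPM in male Myf5Low. In Myf5High it had 91.85 and 75.1 CPM in females and 125.1 and 117.4 CPM in males. The fractions overlapped, since female Myf5High replicate 2 was below both female and male Myf5Low replicate 1. The means were 102.4 ± 23.1 CPM and 70.15 ± 16.6 CPM (n = 4 each, ± SD), a log2 fold change of 0.53 (SE 0.21, 95% confidence interval 0.09 to 0.97, p 0.0217 before adjustment in the edgeR fit and 0.386 after it). That the Col5a2 difference was smaller than those of Col5a1 or Col5a3 was not tested.

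In 3 of the 4 members the 4 Myf5High libraries lay above the 4 Myf5Low libraries, as in 2.36% of all genes tested. Within pools of the same number, all 4 members were higher in Myf5High in 4 of 4 pools, as were 7.51% of genes tested. For Calcr the ratio of Myf5High to Myf5Low was 1.68 and 2.1 in the female pools and 2.23 and 1.46 in the male pools. For Col5a1 it was 2.14 and 1.77 in the female pools and 2.49 and 2.19 in the male pools, and for Col5a3 2.3 and 2.65 against 2.29 and 1.67. The Col5a2 ratios were the lowest in both female pools and in male pool 1, at 1.22, 1.44 and 1.38, and in male pool 2 Col5a2 stood at 1.87, above Calcr and Col5a3.

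Each sex was then compared alone, with 2 libraries against 2. In females Col5a3 was called, with means of 380 ± 1.31 CPM in Myf5High against 154.2 ± 14.6 CPM in Myf5Low (n = 2 each, ± SD) and a log2 fold change of 1.3 with an SE of 0.25 (adjusted p 0.0235 by edgeR). This was 1 of 4 members, against 0.332% of all genes tested. With the pool number as a replicate block Col5a3 had an edgeR adjusted p of 0.0575, and it was not called in the 4 fits with 1 female library removed, with adjusted p-values up to 0.321. The remaining members had female log2 fold changes of 0.9 for Calcr (adjusted p 0.331 by edgeR), 0.94 for Col5a1 (0.219) and 0.39 for Col5a2 (0.887).

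In males 0 of 4 members were called by edgeR, where 0.171% of genes tested were, and all 4 members had an unadjusted p under 0.05, where 6.67% of genes tested did. DESeq2 called Col5a1 and Col5a3 in males, with adjusted p-values of 0.00456 and 0.00724, among 80 genes called in males by that tool, against 20 by edgeR. Male Col5a1 was also called by edgeR with no filter on low counts (log2 fold change 1.23, adjusted p 0.00987, among 111 genes called) and without male Myf5High replicate 2 (1.41, adjusted p 0.0293, among 74 genes called). Without that library the male values were 1.14 for Calcr (adjusted p 0.129 by edgeR), 0.7 for Col5a2 (0.464) and 1.11 for Col5a3 (0.0712). The male log2 fold changes were 0.88 for Calcr (adjusted p 0.42 by edgeR), 1.23 for Col5a1 (0.0916), 0.66 for Col5a2 (0.703) and 0.98 for Col5a3 (0.162). Groups of 2 libraries separate often. The Myf5High libraries lay above the Myf5Low libraries in 3 of 4 members in females, where 19.5% of genes tested did so, and in 4 of 4 members in males, where 15.5% did. Col5a2 overlapped in females, since female Myf5High replicate 2 and female Myf5Low replicate 1 had nearly the same level.

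Whether the difference between the fractions itself differed between the sexes was tested as an interaction. This log2 difference, female effect minus male effect, was 0.02 for Calcr (95% confidence interval -0.84 to 0.88), -0.29 for Col5a1 (-1.1 to 0.52), -0.27 for Col5a2 (-1.15 to 0.61) and 0.33 for Col5a3 (-0.39 to 1.04). None of the 4 passed the edgeR test, in which 0% of genes tested were called (533 genes at an unadjusted p under 0.05), against 2 called by DESeq2. The intervals are wide, and differences between the sexes of the size of the fraction effect itself lie inside them for Col5a1 and Col5a2 and just outside them for Calcr and Col5a3.

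The sexes were set against each other with the fractions together, and 0 of the 4 members were called (edgeR), against 1.65% of genes tested. The fractions of a pool may share their mice, so the 4 libraries of a sex may stand for 2 pools. An unadjusted p under 0.05 was found for 0 of the members, where 13.9% of genes tested had one, and DESeq2, which called 371 genes, likewise called none of them. Calcr averaged 69.9 ± 24.7 CPM in females against 82.2 ± 33.1 CPM in males (n = 4 each, ± SD), with a log2 fold change of -0.24 (95% confidence interval -0.67 to 0.2). Col5a2 averaged 73.55 ± 16.4 CPM in females against 99.0 ± 28.3 CPM in males (n = 4 each, ± SD), with a log2 fold change of -0.41 (95% confidence interval -0.85 to 0.03, adjusted p 0.407 by edgeR). For Col5a1 and Col5a3 the log2 fold changes were 0.02 (-0.39 to 0.42) and -0.03 (-0.39 to 0.33), and the libraries of the sexes overlapped for all 4 members.

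**Figure D2:**
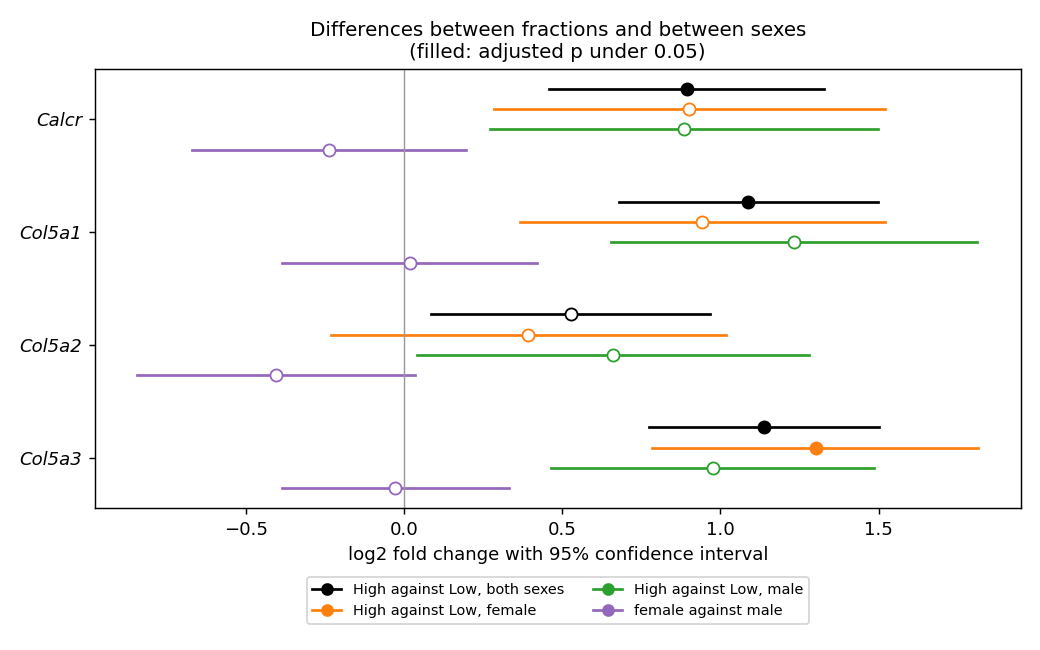
Log2 fold changes (x axis) with 95% confidence intervals from the edgeR fit for the 4 members. Black is Myf5High against Myf5Low over both sexes, orange the same in females, green in males, and purple female against male, and filled points have an adjusted p under 0.05. The black points of Calcr, Col5a1 and Col5a3 and the orange point of Col5a3 are filled, and each purple interval crosses 0.

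The order of the 4 groups was the same for Calcr, Col5a1 and Col5a2 in its upper part, with male Myf5High first. Calcr averaged 106.6 ± 30.3 CPM in male Myf5High, 91.1 ± 3.0 CPM in female Myf5High, 57.8 ± 0.67 CPM in male Myf5Low and 48.7 ± 6.06 CPM in female Myf5Low (n = 2 each, ± SD). The first and second groups overlapped, the Myf5Low groups did not, and the step between the second and the third was the largest. For Col5a1 the groups averaged 184.3 ± 35.1, 168.6 ± 17.1, 78.4 ± 7.87 and 87.7 ± 20.7 CPM in the same order, with overlap between the sexes in each fraction. Col5a3 was led by female Myf5High at 380 ± 1.31 CPM, followed by male Myf5High at 346.2 ± 48.3, male Myf5Low at 176.1 ± 14.6 and female Myf5Low at 154.2 ± 14.6 CPM, and the Myf5High groups overlapped while the Myf5Low groups lay just apart. For Col5a2 the averages were 121.2 ± 5.47 CPM in male Myf5High, 83.5 ± 11.8 in female Myf5High, 76.7 ± 19.6 in male Myf5Low and 63.6 ± 16.5 in female Myf5Low. Male Myf5High stood above every other library of Col5a2, and each of the lower groups overlapped its neighbour.

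Levels were compared between the genes only after division by the length of their merged exons, as CPM per kilobase. On that scale Col5a3 was highest of the 4 in 8 of 8 libraries, at 53.3 ± 5.0 in Myf5High and 24.3 ± 2.54 in Myf5Low (n = 4 each, ± SD), and lay between the 87.2 and the 95.7 percentile of tested genes. Calcr came next, at 25.3 ± 5.04 and 13.6 ± 1.61 (n = 4 each, ± SD), and was above Col5a1 in 7 of 8 libraries. Col5a1 was at 20.8 ± 2.86 and 9.78 ± 1.63, and Col5a2 at 10.7 ± 2.41 and 7.31 ± 1.73 (n = 4 each, ± SD).

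Of the summed collagen V transcript level per kilobase, Col5a3 made up 60.8% ± 4.42, Col5a1 24.1% ± 3.52 and Col5a2 15.1% ± 3.99 (SD, n = 8). Thus the α3 chain gene, and not the partners of the common form, gave the largest share in every library. In Myf5High the Col5a2 share ran from 9.21% to 15.9% and in Myf5Low from 14% to 21.6%. The Col5a3 share ran from 59.6% to 66.5% in Myf5High and from 54.8% to 64.4% in Myf5Low, and the Col5a1 share was 24.5% ± 1.8 and 23.8% ± 5.04 (n = 4 each, ± SD). The ranges overlapped between the fractions for each of the 3 chains, and no test was made. The shares depend on the length taken for each gene. With the longest transcript as the length, the Col5a2 share was 19.2% ± 4.82 (SD, n = 8), and Col5a1 was above Col5a2 in 5 of 8 libraries and not in 8 of 8, while Col5a3 was highest in 8 of 8 with either length. These are shares of transcripts and not of chains in the protein.

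**Figure D3:**
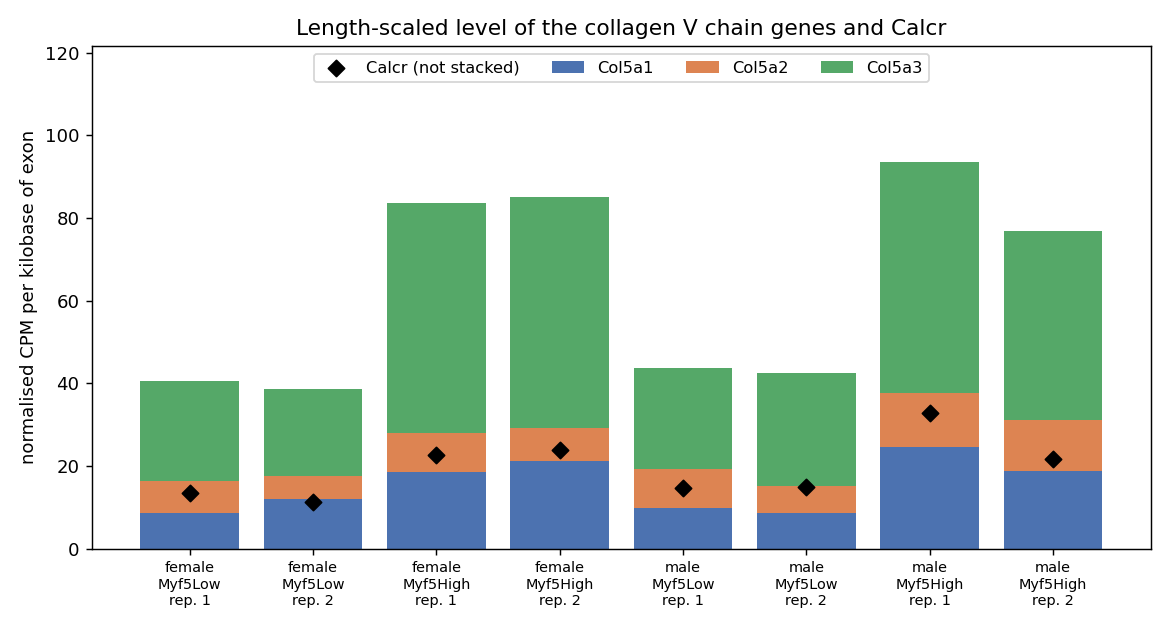
Normalised CPM per kilobase of merged exon for Col5a1, Col5a2 and Col5a3, stacked, in each of the 8 libraries, with Calcr as black diamonds that are not part of the stack. Col5a3 is the tallest segment in 8 of 8 libraries, and the stacks and the diamonds of the 4 Myf5High libraries are all taller than those of the 4 Myf5Low libraries.

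Across the 8 libraries, Calcr had a Pearson correlation of log2 CPM of 0.949 with Col5a3, 0.885 with Col5a1 and 0.784 with Col5a2. Among the chain genes it was 0.905 for Col5a1 with Col5a3, 0.66 for Col5a2 with Col5a3 and 0.611 for Col5a1 with Col5a2. The points span both fractions, so the difference between the fractions enters each correlation, and the genes of a pair were read from the same libraries and so share the depth of each. The values are a description and carry no test. Of 7862 genes whose mean reached 10 CPM, those most like Calcr were Sh3rf1 (0.966), Ccdc8 (0.955) and Pitpnc1 (0.954), and those most like Col5a1 were Dusp14 (0.985), Fstl1 (0.981), which encodes a secreted glycoprotein, and Dcdc2a (0.967). Most like Col5a3 were Adamts15 (0.977), which encodes a secreted metalloproteinase, Heg1 (0.975) and Klhl13 (0.974), and most like Col5a2 were Ap3b2 (0.973), Gxylt2 (0.967) and Csnk1a1 (0.95).

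Other genes of the receptor's pathway were examined by lists. Of 10 genes for relatives, partners and ligands of the calcitonin receptor, 5 were tested and 0 were called by edgeR between the fractions, where 1.2% of all genes tested were, with a median log2 fold change of -0.13 against -0.02 over all genes tested. Ramp2, which encodes a receptor activity-modifying protein that partners receptors of this family, had 149.2 ± 29.5 CPM in Myf5High against 163.7 ± 30.5 CPM in Myf5Low (n = 4 each, ± SD). Calcrl, the related receptor of adrenomedullin and CGRP, had 26.6 ± 11.5 and 39.5 ± 7.28 CPM (n = 4 each, ± SD), with a log2 fold change of -0.6 with an SE of 0.27 (adjusted p 0.487 by edgeR). Among peptide ligands of the family, Iapp (amylin) and Adm2 had 0 counts in all 8 libraries. Calca, the gene of calcitonin and CGRP, was at 0 to 2.47 CPM and was not tested. Adm, the adrenomedullin gene, was the ligand gene with a test, at 6.59 to 19.7 CPM and 22 to 82 counts. Its log2 fold change was 0.63 with an SE of 0.42 (adjusted p 0.749 by edgeR), and it was higher in Myf5High in 3 of 4 pools.

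Downstream of the receptor, the list held G protein, adenylyl cyclase, protein kinase A and phosphodiesterase genes, and the kinases Lats1 and Lats2 with Yap1, Wwtr1 and their target genes. All 21 were tested, 1 was called higher and 0 lower in Myf5High, against 0.767% of all genes tested called higher, and the median log2 fold change was 0.09 (-0.02 over all genes tested). The called gene was Ankrd1, a target gene of YAP. It was at 428.8, 297.1, 410.4 and 441.3 CPM in the Myf5Low libraries and at 1953, 1357, 922.4 and 1350 CPM in the Myf5High libraries (female replicates 1 and 2, then male). The fractions did not overlap, and the log2 fold change was 1.8 (SE 0.2, adjusted p 7.26e-05 by edgeR). Gnas, which encodes the stimulatory G protein subunit, had 1512 ± 522 CPM in Myf5High against 1493 ± 340 CPM in Myf5Low, and Prkar1a, a regulatory subunit of protein kinase A, had 460.5 ± 80.0 and 435 ± 54.3 CPM (n = 4 each, ± SD). The Yap1 transcript had a log2 fold change of 0.27 with an SE of 0.22 (adjusted p 0.822 by edgeR). Of the other target genes listed, Ccn1 and Ccn2 were not called between the fractions. Their log2 fold changes were 0.46 (SE 0.22, adjusted p 0.553 by edgeR) and 0.34 (SE 0.42, adjusted p 0.916 by edgeR). Between the sexes Ccn1, another YAP target gene, was the only one of the 21 called, where 1.65% of all genes tested were, at 370 CPM in females against 165 CPM in males on average (log2 fold change 1.119, SE 0.23, adjusted p 0.0133 by edgeR), and it was not called without female Myf5High replicate 1 (adjusted p 0.112).

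The remaining fibrillar collagen chains were examined beside collagen V. Of 8 listed, 5 were tested and 0 were called between the fractions or the sexes by edgeR, where 1.2% and 1.65% of all genes tested were, and the median log2 fold change between the fractions was 0.26 (-0.02 over all genes tested). Col3a1 had 331.1 ± 168 CPM in Myf5High against 214.7 ± 60.1 CPM in Myf5Low (n = 4 each, ± SD; log2 fold change 0.57, SE 0.23, adjusted p 0.394 by edgeR). Col1a1 had 99.85 ± 96.3 and 72.5 ± 35.5 CPM (n = 4 each, ± SD; log2 fold change 0.26, SE 0.37, adjusted p 0.928 by edgeR). Male Myf5High replicate 1 held the highest level of both, at 580.7 and 243.5 CPM. The remaining Myf5High libraries had 38.48, 56.55 and 60.85 CPM of Col1a1, below the Myf5Low mean, and Col1a1 was higher in Myf5High in 1 of 4 pools, against 4 of 4 for Col3a1. Log2 fold changes were above 0 for 3 of the 5 tested and below 0 for Col1a2 and Col11a1 (-0.86, SE 0.997). Col1a2 had 34.4 ± 20.4 CPM in Myf5High against 48.2 ± 12.1 CPM in Myf5Low (n = 4 each, ± SD). Its log2 fold change was -0.49 (SE 0.34, adjusted p 0.771 by edgeR), and it was higher in Myf5High in 1 of 4 pools.

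Collagen folding, processing and cross-linking genes make new chains into fibrils. Of 26 listed, 21 were tested, 3 were called higher and 0 lower in Myf5High, where 0.767% of all genes tested were called higher, and the median log2 fold change was 0.38 against -0.02 over all genes tested. Bmp1, the gene of a metalloproteinase that trims procollagens, was at 60.2 to 98.3 CPM in Myf5Low and 172.7 to 255.1 CPM in Myf5High (log2 fold change 1.26, SE 0.19, adjusted p 0.0013 by edgeR). Loxl2, the gene of a lysyl oxidase that cross-links collagen, was at 7.62 to 8.94 CPM in Myf5Low and 31.9 to 46.8 CPM in Myf5High (log2 fold change 2.24, SE 0.29, adjusted p 0.000324 by edgeR). Bmp1 and Loxl2 were called without each library in turn.

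Pcolce2, the gene of an enhancer of procollagen trimming, averaged 18.3 ± 7.37 CPM in Myf5High against 4.2 ± 4.03 CPM in Myf5Low (n = 4 each, ± SD; log2 fold change 2.73, SE 0.49, adjusted p 0.00609 by edgeR). It had 1 count in female Myf5Low replicate 2, and in an additive model of sex and fraction it was not called (adjusted p 0.0941 by edgeR). Nor was it called with the pool as a block and 1 fraction effect for both sexes (log2 fold change 2.47, adjusted p 0.099 by edgeR), a setting chosen after seeing the data. Without female Myf5Low replicate 1 its log2 fold change was 3.63, and over the 8 fits with 1 library removed it ran from 2.31 to 3.63 and was called in each. Serpinh1, the gene of the collagen chaperone HSP47, had 960.9 ± 481 and 554.1 ± 99.0 CPM (n = 4 each, ± SD; log2 fold change 0.68, SE 0.19, adjusted p 0.121 by edgeR). Between the sexes, where 1.65% of all genes tested were called, Serpinh1 was called, at 996.9 CPM in females against 518 CPM in males on average (log2 fold change 0.85, SE 0.19, adjusted p 0.0279 by edgeR), but in only 1 of 8 fits with 1 library removed, the one without male Myf5High replicate 1. Among abundant genes that were not called, P4hb had log2 fold changes of 0.23 (SE 0.18) and Loxl1 of 0.33 (SE 0.22) between the fractions.

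Collagen receptors and Notch genes complete the lists. Of 8 collagen receptor genes 6 were tested and 0 called by edgeR between the fractions, where 1.2% of all genes tested were, and their median log2 fold change was 0.21 (-0.02 over all genes tested). The integrin subunit Itgb1 had 358.3 ± 39.0 and 313.2 ± 43.0 CPM in Myf5High and Myf5Low, and Ddr1, a receptor kinase for collagen, had 219.8 ± 77.7 and 178.6 ± 30.1 CPM (n = 4 each, ± SD). Of 15 Notch receptors, ligands and effectors, 14 were tested and 0 were called between the fractions or the sexes by edgeR, against 1.2% and 1.65% of all genes tested, with a median log2 fold change between the fractions of -0.021 against -0.0179 over all genes tested, 7 above 0 and 7 below. Notch1 had a value of -0.46 with an SE of 0.18 (adjusted p 0.393 by edgeR), and the ligand gene Dll1 one of -0.77 (SE 0.4, adjusted p 0.586 by edgeR), and both were lower in Myf5High in 4 of 4 pools. The ligand gene Jag1 had a value of 0.84 (SE 0.26, adjusted p 0.191 by edgeR) and was higher in Myf5High in 4 of 4 pools. Notch3 had a log2 fold change of 0.62 with an SE of 0.23 (adjusted p 0.32 by edgeR), Heyl, a target gene of Notch, one of 0.35 (SE 0.21, adjusted p 0.716 by edgeR), and Rbpj one of 0.19 (SE 0.24, adjusted p 0.918 by edgeR).

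**Figure D4:**
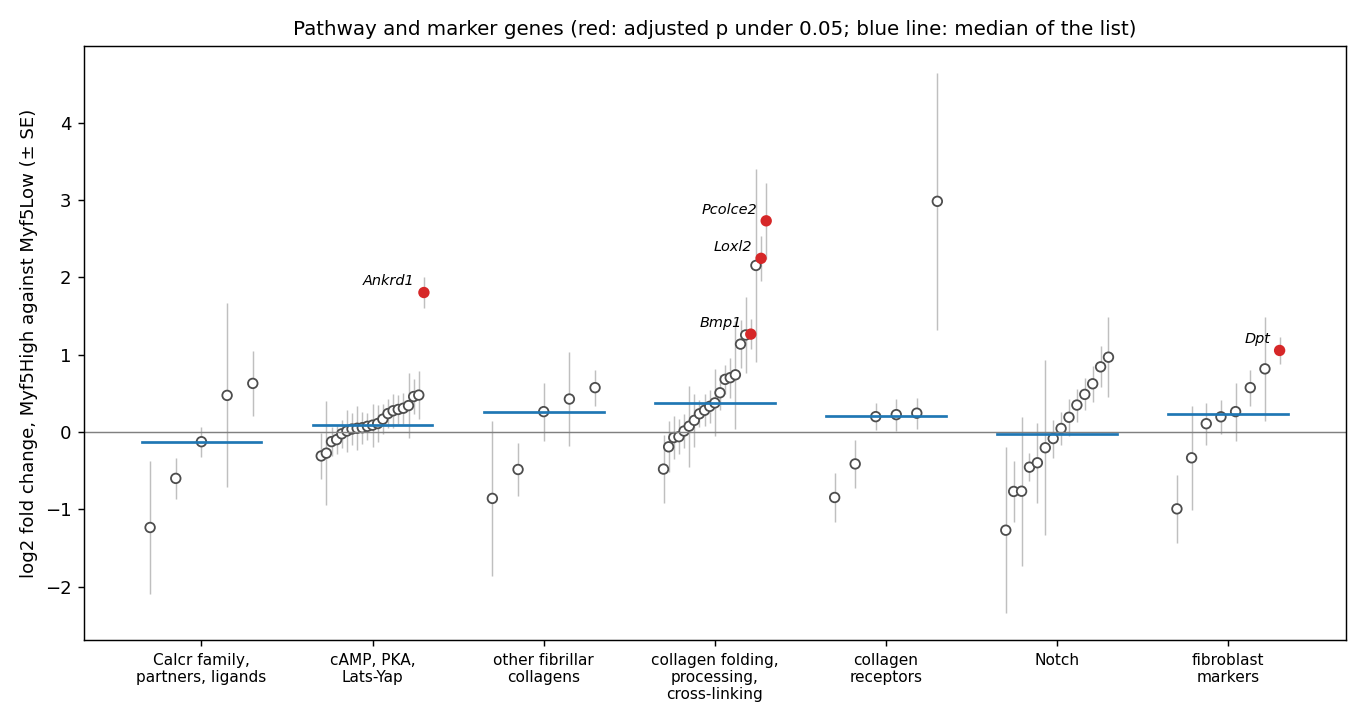
Log2 fold change of Myf5High against Myf5Low (y axis, ± SE) for the tested genes of 6 pathway lists and of the fibroblast markers, each list sorted by value. Red points have an adjusted p under 0.05 in the edgeR fit and are named, and blue lines are list medians. Ankrd1, Bmp1, Loxl2, Pcolce2 and Dpt are the called genes shown.

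Markers of cell types that could be carried into the sort were measured beside these results. Over all genes tested, 1.2% were called between the fractions in either direction and 0.767% were called higher in Myf5High, and the counts of called markers are to be read against these shares. Of 7 markers of muscle stem cells 7 were tested and 2 were called higher in Myf5High, Myf5 and Chrdl2 (log2 fold change 1.33, SE 0.24, adjusted p 0.00554 by edgeR). The reporter of the sort is at Myf5, so the Myf5 call is not independent of the sort and does not measure stem cell content. The summed level of the 7 was 2760 to 4090 CPM in Myf5High and 2750 to 3140 CPM in Myf5Low, which overlapped. Log2 fold changes were above 0 for 5 of them and below 0 for Itga7 and Vcam1 (-0.004). Itga7 had -0.47 with an SE of 0.19 (adjusted p 0.393 by edgeR) and was higher in Myf5High in 1 of 4 pools. Of 6 markers of committed myogenic cells 2 were called lower, Myog and Mymk, and Mymk was at 0 counts in all Myf5High libraries. The summed level of the committed list was 28.5 to 256 CPM in Myf5High and 183 to 709 CPM in Myf5Low, which overlapped through male Myf5High replicate 1, where the embryonic myosin gene Myh3 made up 174.8 of the 256 CPM. Myog, the gene of the differentiation factor myogenin, was at 0 to 1.27 CPM in Myf5High against 93.66 to 532.5 CPM in Myf5Low, without overlap (adjusted p 2.24e-08 by edgeR, lower in 4 of 4 pools). Between the sexes Myh3 of that list was called, against 1.65% of all genes tested, with 3.09 CPM in females against 69.2 CPM in males on average (adjusted p 0.0279 by edgeR, and called in 3 of 8 fits with 1 library removed), where 2 male libraries held nearly all of the male level.

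Fibroblasts are a main source of fibrillar collagen in muscle, and the summed level of their 9 markers was also higher in Myf5High. It was 1120 to 2120 CPM in Myf5High and 897 to 1070 CPM in Myf5Low, without overlap, and was highest in male Myf5High replicate 1. Of the 9, 8 were tested and 1 was called, Dpt (444.5 ± 128 against 209.8 ± 35.2 CPM, n = 4 each, ± SD; log2 fold change 1.05, SE 0.18, adjusted p 0.00327 by edgeR). The other eight summed to 629 to 1520 CPM in Myf5High and 735 to 846 CPM in Myf5Low, which overlapped. Male Myf5High replicate 1 set the upper end, and without it they summed to 629 to 954 CPM in Myf5High. Pdgfra, a defining marker of these cells, was at 0 to 4.33 CPM, with at most 17 counts in a library, and was not tested. It averaged 2.66 ± 1.25 CPM in Myf5High against 0.774 ± 0.758 CPM in Myf5Low (n = 4 each, ± SD) and was higher in Myf5High in 4 of 4 pools. Of the 8 tested markers 6 had a log2 fold change above 0 and 2 below, and their median was 0.23 (-0.02 over all genes tested). Besides Dpt, those above 0 were Lum (0.815), Col3a1 (0.57) and Col1a1 (0.26), both collagen chain genes described above, Gsn (0.195) and Dcn (0.11), none of them called by edgeR. Those below 0 were Pi16 at 10.86 against 21.4 CPM (log2 fold change -0.995, SE 0.44, adjusted p 0.471 by edgeR) and Smoc2 at 5.62 against 7.56 CPM (-0.34, SE 0.67, adjusted p 0.953 by edgeR), each higher in Myf5High in 1 of 4 pools, against 4 of 4 for Dpt and Col3a1, 3 of 4 for Lum and Gsn, 2 of 4 for Dcn and 1 of 4 for Col1a1. Without male Myf5High replicate 1 the log2 fold changes were 1.06 for Col5a3 (adjusted p 0.00152 by edgeR), 0.98 for Col5a1 (0.00933), 0.5 for Col5a2 (0.402) and 0.73 for Calcr (0.105). The part of fibroblast RNA in the differences of the collagen V genes was not tested.

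Other marker lists were lower in Myf5High or overlapped. The summed level of 6 mural markers was 143 to 185 CPM in Myf5High and 247 to 543 CPM in Myf5Low, with Acta2 called lower (log2 fold change -1.73, SE 0.23, adjusted p 0.000389 by edgeR). Acta2 alone was at 40.11 to 68.49 CPM in Myf5High and 139.3 to 335.2 CPM in Myf5Low. Rgs5 and Myh11 overlapped, at 83.51 and 50.63 CPM in male Myf5High replicate 2 against 54.12 and 32.69 CPM in female Myf5Low replicate 1. Log2 fold changes were below 0 for 5 of the 6 and above 0 for Cspg4 (0.24, SE 0.54). The summed level of 5 immune markers, 4 of them tested, was 11.8 to 37.8 CPM in Myf5High and 44.0 to 69.9 CPM in Myf5Low, with C1qa called lower (log2 fold change -2.13, SE 0.39, adjusted p 0.00771 by edgeR). C1qa was at 2.16 to 7.12 CPM in Myf5High and 17.41 to 27.11 CPM in Myf5Low. Lyz2 overlapped, at 16.82 CPM in female Myf5High replicate 1 against 11.81 CPM in female Myf5Low replicate 1. Cd74 went the other way (log2 fold change 0.31, SE 0.555), with 28.93 CPM in male Myf5High replicate 2. For 6 endothelial markers the summed level was 198 to 387 CPM in Myf5High and 256 to 559 CPM in Myf5Low. For 5 Schwann cell markers, 4 of them tested, it was 47.6 to 108 and 61.3 to 154 CPM, and for 5 tenocyte markers 14.5 to 50.1 and 22.2 to 43.3 CPM. For 2 erythroid markers it was 569 to 1330 CPM in Myf5High and 512 to 1680 CPM in Myf5Low. In these 4 lists 0 genes were called, and the ranges of the fractions overlapped. The endothelial markers did not all go 1 way: Tek, the gene of a receptor of angiopoietins, was at 86.8 CPM in Myf5High against 42.5 CPM in Myf5Low on average (log2 fold change 0.99, adjusted p 0.0577 by edgeR, higher in 4 of 4 pools), and the other five had log2 fold changes below 0. No marker of these lists was at 0 in all 8 libraries. Of 11 early genes of tissue dissociation 11 were tested and 0 called, with sums of 20800 to 34800 CPM in Myf5High and 19600 to 26300 CPM in Myf5Low. The log2 fold changes of all 11 were above 0, with a median of 0.35 against -0.02 over all genes tested. That of Ier3 was 1.03 with an SE of 0.25 (adjusted p 0.0505 by edgeR), and it was higher in Myf5High in 4 of 4 pools. Their part in the results was not tested.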

How the data were processed

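RNA from 8 libraries was analysed, 2 for each of 4 groups taken from the sample titles. The deposited values are read counts, whole numbers for each mouse gene that the authors left unnormalised, per the file headers and values. HTSeq and the genome build GRCm38 are named in the submitters' processing notes. The strand setting, the aligner and the release of the annotation were not given in the sources used here. The 5 tally rows at the end of the table were left out. Reads with no feature were 41.96% to 45.28% of the reads tallied in the table, which lists 0 unaligned and 0 multiply aligned reads, and ambiguous reads 0.248% to 0.296%. Gm42418, a single annotated transcript, took 20.06% to 28.79% of gene counts. No column was left unused, and the unit was the one assumed.

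Of 27554 genes, 27441 matched GENCODE mouse release 21, from which symbols, positions and exon lengths were taken. Promoter and microRNA sequences came from RefSeq on GRCm38.p6, and 3 of 4 members had a promoter entry.

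Tests were run with edgeR 4.0.16 and limma 3.58.1 in R 4.3.3. The filter filterByExpr (minimum count 10, minimum total 15) left 11730 genes. After TMM scaling, a model with a mean for each group was fitted over the 8 libraries by glmQLFit, and glmQLFTest gave two-sided p-values for the contrasts, with Benjamini-Hochberg adjustment over all genes tested. The labels call the replicates of a group independent pools of 4 mice. Likeness was the Pearson correlation of log2 CPM at a prior count of 2. Tests were tested on simulated data. Python 3.11.15 was used for the annotation.

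Pool labels give Myf5High and Myf5Low libraries of 1 sex the same pool numbers, which the block uses, but do not state that they share mice. Across genes, the deviations of same-numbered libraries had a correlation of 0.0275 in females and -0.000273 in males. Each value takes in all genes tested and rests on 2 libraries per group, so it does not decide whether mice were shared. The fit without the block is the main one.

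Other settings were RLE and upper quartile scaling, no filter, a filter at a mean of 50 counts, DESeq2 1.42.0, the pool as a replicate block, an additive model, fits of 1 sex, summed pools, removal of Gm42418, the longest transcript as length, and leaving out each library. The members and lists were chosen with earlier results of these data known. Named were the 4 members, list genes called between fractions or sexes, up to 2 abundant genes per list that were not called, and the 3 genes most like each member. Yap1, Rbpj, Pdgfra, the fibroblast markers that were not called, Notch1, Dll1, Jag1, Ier3, Tek, Itga7, Vcam1 and the ligand genes were added after their values were seen. So were Ccn2, Col1a2, Col11a1, Rgs5, Myh11, Cspg4, Cd74 and Lyz2.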

Additional observations from a re-analysis of the deposited data

Results flagged for a closer look

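Col5a3 in male Myf5High replicate 2 was at 312 CPM, while the other Myf5High libraries lay between 379 and 380.9 CPM. The gap from this library to its nearest neighbour was 0.973 of the range of the 4 libraries, above Dixon's critical value for 4 samples. The levels of the 4 members were examined in 16 such groups of 4 libraries, and chance marks about 1 in 20 groups.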

How the results depend on the processing

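Col5a1 and Col5a3 kept their direction and their call between the fractions in each of the 17 other settings, with log2 fold changes of 0.97 to 1.22 and 1.06 to 1.21. Col5a2 was called in 0 of 17 (0.4 to 0.67). Calcr was called in 9 of 17. With the pool as a replicate block it had a log2 fold change of 0.88 (edgeR adjusted p 0.0711), with 1 fraction effect for both sexes in that block, a setting chosen after seeing the data, 0.88 (adjusted p 0.0434), and without each library in turn 0.73 to 1.02. The block also ended the female call of Col5a3 (1.3, adjusted p 0.0575) and changed no other call of a member. Without a filter on low counts the genes called numbered 291 between the fractions, 167 in females, 111 in males, 14 for the interaction and 477 between the sexes, and with DESeq2 234, 111, 80, 2 and 371. With 1 library left out, where the lone sample of a group is assumed to vary like the other groups, they ranged over 82 to 243 (the latter without male Myf5High replicate 2), 9 to 117, 8 to 74, 0 to 8 and 82 to 558. The fit of the female libraries called 77 and that of the male libraries 2. Small differences changed sign: between the sexes Col5a1 (-0.01) and Col5a3 (0.038) with summed pools, and over the fits with 1 library left out Col5a1 (-0.12 to 0.12; -0.12 without female Myf5Low replicate 2, -0.07 without male Myf5High replicate 2, -0.04 without female Myf5High replicate 2, -0.03 without male Myf5Low replicate 2) and Col5a3 (-0.095 to 0.046; 0.02 without female Myf5Low replicate 2, 0.01 without male Myf5Low replicate 2, 0.046 without male Myf5High replicate 1). The interaction of Calcr ran from -0.24 to 0.345 over these fits and became -0.12, -0.24 and -0.01 without female Myf5Low replicate 2, male Myf5High replicate 2 and female Myf5High replicate 2, and that of Col5a2 ran from -0.572 to 0.015, the latter without female Myf5Low replicate 1. The Col5a2 share moved from 15.1% to 19.2% with the longest transcript as length. The causes were not tested. Each member had at least 189 counts in every library.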
